A study of Mus musculus with 12 samples.

Results

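The genes of the translation initiation factors were followed through the day in mouse liver. All rows of the deposited RNA-Seq signal whose gene symbol begins with Eif and a digit from 1 to 6 were taken, which gave 57 of the 20069 rows. They stand for 55 genes, since *Eif3i* and *Eif3s2*, and likewise *Eif3k* and *Eif3s12*, are pairs of rows for the same gene under a current and an older symbol. The symbol rule also takes in the eIF2α kinases (Eif2ak), the repressors of the cap-binding protein (Eif4ebp) and 4 Argonaute genes (Eif2c), which are effectors of small RNA silencing and carry the prefix for historical reasons only.

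Poly(A) RNA was sequenced from the livers of wild-type C57BL/6 mice, adults of 3 to 6 months kept in 12 hr of light and 12 hr of dark for at least 2 weeks. The 12 samples are 2 series of 6 time points in hours after lights on (zeitgeber times ZT2, ZT6, ZT10, ZT14, ZT18 and ZT22), with no treatment and no mutant, and each time point has n = 2. The mice were males by the study's methods. The comparison asks which mRNA levels change with the time of day. The samples are whole liver, so a lower value can come from fewer cells of a type or from less RNA per cell, and these cannot be told apart. A liver can be taken only once from an animal, so the 6 time points are different mice. The labels do not say whether a sample is 1 mouse or a pool, and the p-values measure only the spread between these samples.

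Initiation is the step of translation in which a ribosome finds the start codon of an mRNA. eIF2 brings the initiator tRNA to the small ribosomal subunit, eIF3 holds the complex together, and eIF4F (the cap-binding eIF4E, the scaffold eIF4G and the helicase eIF4A, assisted by eIF4B and eIF4H) loads it onto the capped end of the mRNA. The step is controlled mainly on the proteins, through phosphorylation of eIF2α by 4 kinases, which blocks the exchange factor eIF2B, and through the 4E-BP proteins, which take eIF4E away from eIF4G until mTOR phosphorylates them. In liver, feeding is known to act on both switches. The values here are mRNA levels and say nothing of protein amount or phosphorylation.

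The level of a gene is the mean coverage of its exons in reads per base pair (rpbp), on a scale of 40000000 uniquely mapped sequences per sample, and is therefore comparable between genes of different length. Expressed genes are those above 8 rpbp in 1 sample or more, and there were 10198 of them. Size factors by the median of ratios lay between 0.971 and 1.04. All 8 hepatocyte markers were expressed, with a summed level of 92188 to 174509 rpbp, and no pancreas marker was in the table. Kupffer cell markers summed to 264 to 554 rpbp, endothelial markers to 174 to 209.8 rpbp, bile duct markers to 63.7 to 229 rpbp, stellate cell markers to 186 to 242 rpbp and red blood cell markers to 353 to 1174 rpbp. The lymphocyte and neutrophil markers summed to at most 9.76 and 21.4 rpbp. Both samples at ZT2 stood apart, with 92188 and 95044 rpbp for the hepatocyte markers against 136257 to 174509 rpbp in the 10 others (F24 = 0.585, permutation p = 0.0072), and 552 and 554 rpbp for the Kupffer cell markers against 264 to 441 rpbp. The summed level of 5 clock genes, taken as a check of the time labels, had a 24 hr component with a permutation p of 0.0001, the smallest that 10000 orders can give.

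Initiation factor mRNAs were abundant, and most varied less over the 12 samples than the median expressed gene. Of the 57 rows, 52 were expressed. The 5 others were the kinase gene *Eif2ak4* (GCN2, 4 ± 0.533 rpbp, SD, n = 12 samples here and below), *Eif5a2* (0.433 ± 0.177 rpbp) and the Argonaute genes *Eif2c2* (5.83 ± 0.841 rpbp), *Eif2c3* (2.73 ± 0.855 rpbp) and *Eif2c4* (2.27 ± 0.725 rpbp). The mean level of the 52 rows had a median of 67.9 rpbp, against 22.9 rpbp over all 10198 expressed genes. It ran from 6.89 ± 2.04 rpbp for *Eif4e3* to 419.6 ± 44.9 rpbp for *Eif1*. The SD over the 12 samples was 10.2% of the mean in the median row, against 14.9% in the median expressed gene. The highest value was more than 1.5 times the lowest in 19 rows (36.5%), against 64.3% of all expressed genes.

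**Figure D1:**
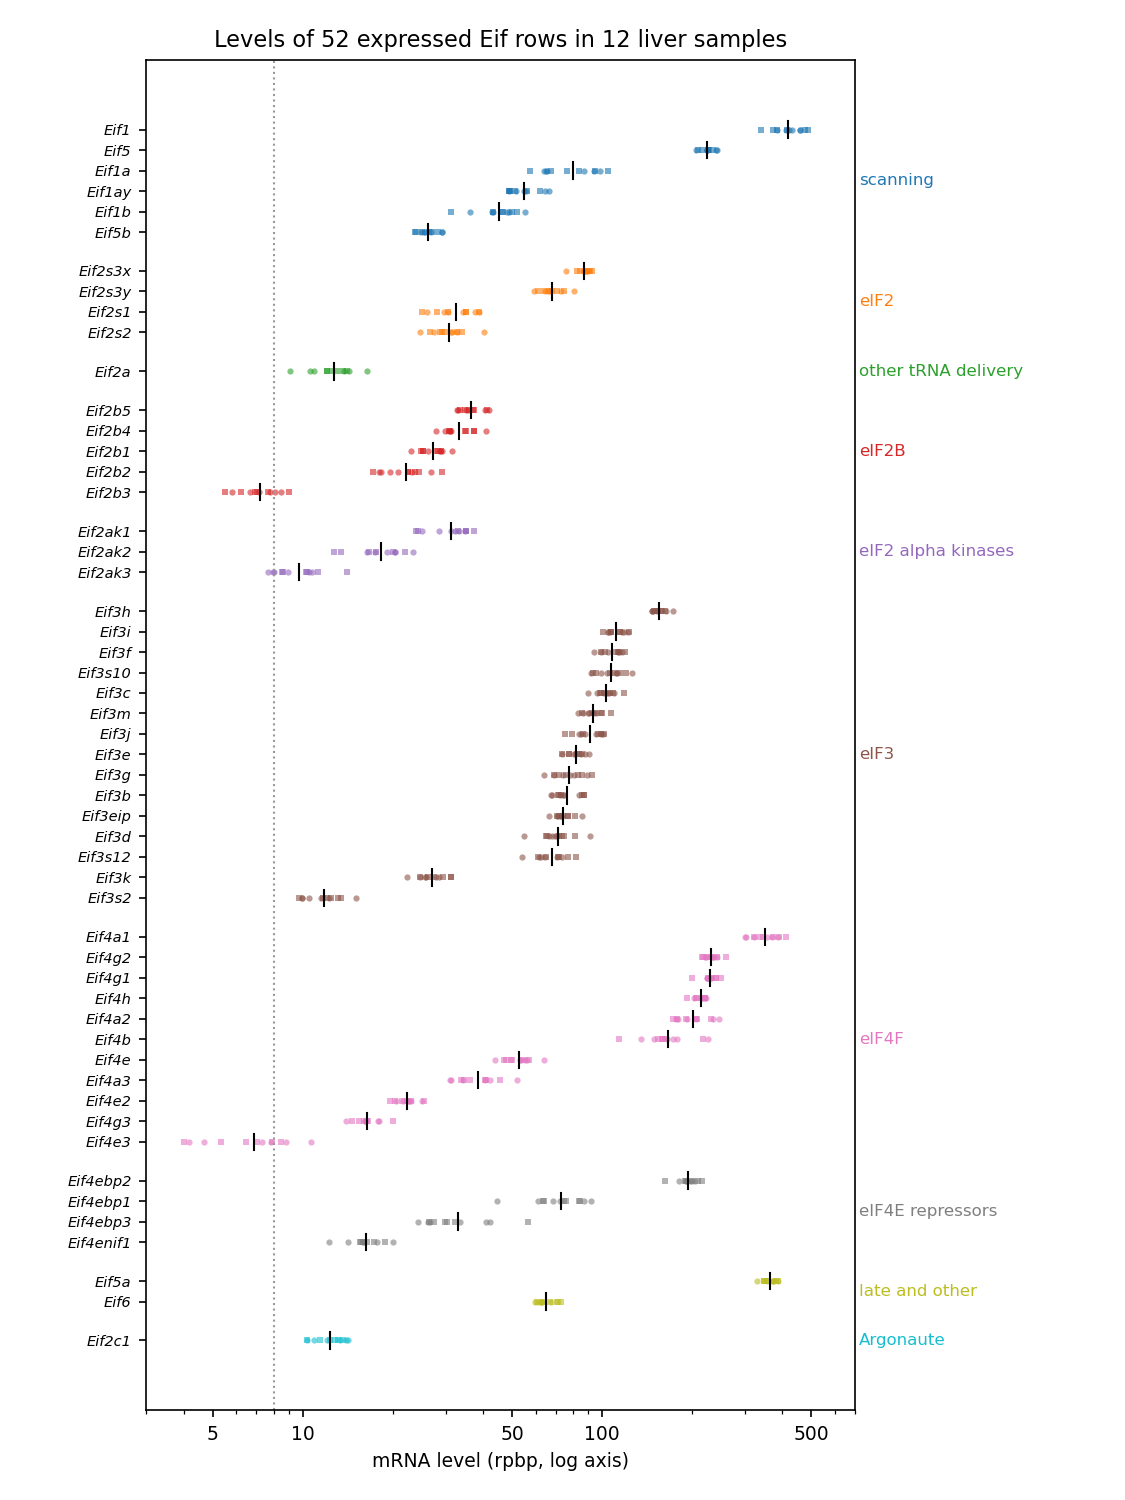
mRNA level in rpbp (log axis) of the 52 expressed Eif rows in each of the 12 liver samples, grouped by role; circles are series 1, squares are series 2 and the black bar is the mean of the 12 samples. The dotted line is the expression minimum of 8 rpbp. The highest means are those of *Eif1* (419.6 rpbp), *Eif5a* (363 rpbp) and *Eif4a1* (351.6 rpbp).

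The 24 hr rhythm of a gene was measured by F24, the share of the variance of the 12 values that a 24 hr wave takes up. A gene was called rhythmic when F24 exceeded 0.45, the permutation p was below 0.05 and the amplitude, the highest over the lowest of the 12 values, exceeded 1.5. By this rule 19.1% of all expressed genes were rhythmic, and of the 52 initiation factor rows 1 was (1.92%), *Eif4b*. No row reached the stricter limits for a strong rhythm, among them F24 above 0.6, against 7.89% of all expressed genes. With single samples left out in turn, *Eif4b* was called in all 12 cases, and 1 or 2 rows joined it in 8 of them, with 3 rows called without ZT14 of series 1 (*Eif2ak2*, *Eif2s2* and *Eif4b*) and 2 without ZT2, ZT6 or ZT18 of series 1 or ZT2, ZT10, ZT14 or ZT18 of series 2. These are 1.92% to 5.77% of the rows, against 15.7% to 19.7% of all expressed genes in the same 12 cases. With either series alone, 0 rows were called, against 2.85% (series 1) and 3.62% (series 2) of all expressed genes, and the smallest p that 6 values can give is 0.0167. Without both ZT2 samples 2 rows were called (3.85%, against 15.2% of all expressed genes), *Eif4b* and *Eif3s2*.

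The permutation p alone was below 0.05 for 3 of the 52 rows, *Eif4b*, *Eif1* and *Eif2s3y*, against 26.6% of all expressed genes. After the Benjamini-Hochberg adjustment over the 10198 genes, no row was left, against 5.62% of all expressed genes. The 24 hr wave fitted by limma had an adjusted p below 0.05 in no row, against 9.22% of all expressed genes, and an unadjusted p below 0.05 in 3 rows, against 27.6%. The median F24 was 0.252 for the rows and 0.310 for all expressed genes. A fit by limma on log2(rpbp + 1) that asks for any difference among the 6 time points called 4 rows at an adjusted p below 0.05, against 20.4% of all expressed genes, and 12 rows at an unadjusted p below 0.05, against 37.7%. The 4 rows were *Eif4b*, *Eif1a*, *Eif2s1* and *Eif4a3*.

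**Figure D2:**
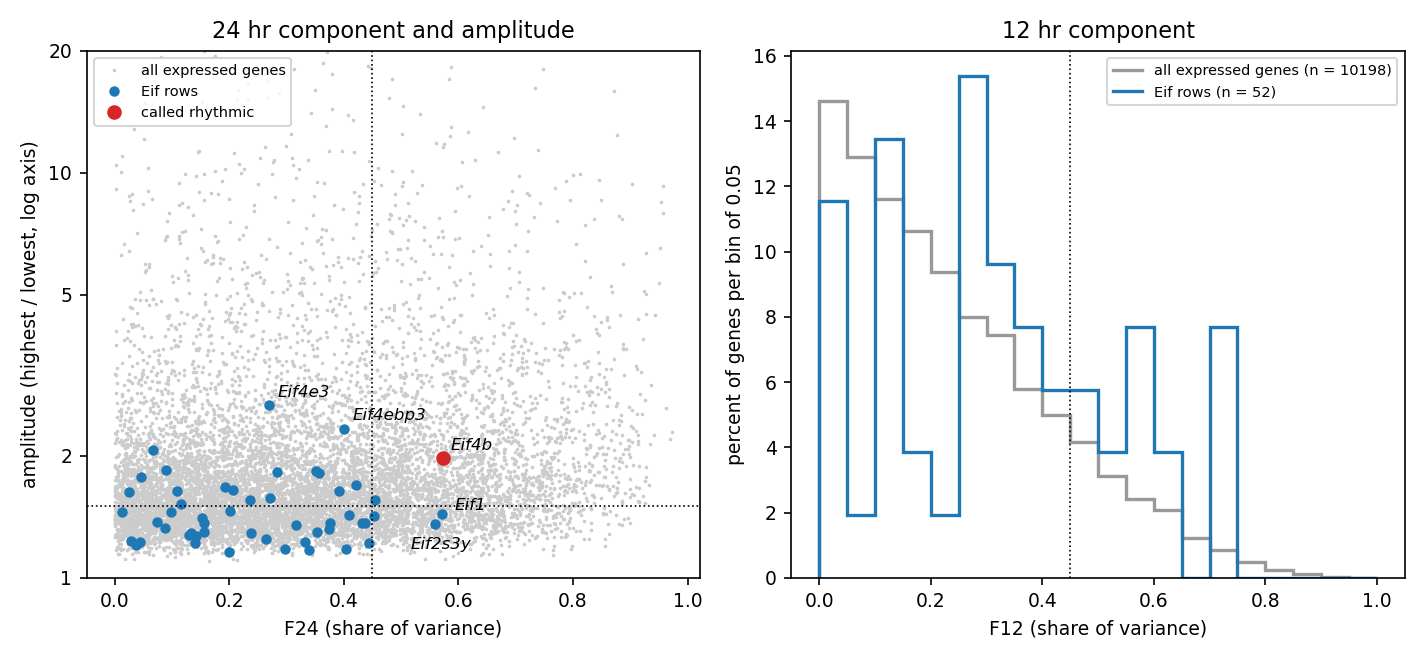
Left, F24 against the amplitude (log axis) of all expressed genes (grey), the Eif rows (blue) and *Eif4b*, the row called rhythmic (red); dotted lines are the limits of 0.45 and 1.5, and 190 genes with an amplitude above 20, none of them an Eif row, lie outside the axis. Right, the share of genes by F12, the same measure for a 12 hr wave, in bins of 0.05, for the 52 Eif rows and all 10198 expressed genes. The medians of F12 are 0.307 and 0.202.

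*Eif4b* encodes eIF4B, an RNA-binding cofactor of the helicase eIF4A and a target of the S6 and RSK kinases, and lies at chr15:101904204-101927603, plus strand (mm9). *Eif4b* stood at 178, 226, 165, 135, 149 and 173 rpbp in series 1 and at 159, 218, 159.8, 114, 163 and 154 rpbp in series 2, from ZT2 to ZT22. Both samples at ZT6 were above all 10 others, and both at ZT14 were below all 10 others. The time-point means went from 222 ± 5.66 rpbp (SD, n = 2) at ZT6 to 125 ± 14.8 rpbp at ZT14, a ratio of 1.78. For the 12 values, F24 was 0.573 (permutation p = 0.0136, adjusted p = 0.0992), the phase 4.42 hr and the amplitude 1.97. The 24 hr wave fitted by limma had a log2 peak to trough difference of 0.54 ± 0.15 (SE), with an adjusted p of 0.0799, and the test for any difference among the time points had an adjusted p of 0.0121. The last call was lost when either ZT6 sample was left out, which left 3 rows called without ZT6 of series 1 and 4 without ZT6 of series 2. In each series alone F24 was 0.743 (series 1) and 0.461 (series 2), with permutation p of 0.1 and 0.483 over all 720 orders. No exon base of *Eif4b* was shared with another annotated gene, and 1.95% of the pieces of its transcripts as long as a sequenced read occur elsewhere in the genome.

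The promoter of *Eif4b* is shown because it is the 1 row called rhythmic. It is the RefSeq window from 250 bases before to 20 bases after the start site (GRCm38.p6, chr15:102073523-102073792, plus strand), printed 5′ to 3′ without capitals since none of the 4 motifs searched below occurs in it.

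Eif4b: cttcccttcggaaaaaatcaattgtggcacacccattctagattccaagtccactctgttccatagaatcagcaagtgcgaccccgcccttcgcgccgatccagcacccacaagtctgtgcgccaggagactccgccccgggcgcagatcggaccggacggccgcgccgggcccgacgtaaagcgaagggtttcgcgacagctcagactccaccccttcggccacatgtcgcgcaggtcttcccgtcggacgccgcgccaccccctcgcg

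The partner cofactor *Eif4h*, whose product stimulates eIF4A in the same way as eIF4B, was the steadiest of the 52 rows (chr5:135095747-135115218, minus strand). *Eif4h* stood at 222, 219, 221, 216, 203 and 214 rpbp in series 1 and at 221, 205, 208, 218, 192 and 220.2 rpbp in series 2, from ZT2 to ZT22. The SD was 4.37% of the mean of 213 ± 9.33 rpbp, and the lowest sample of each series was the one at ZT18. For *Eif4h*, F24 was 0.200 (permutation p = 0.3688, adjusted p = 0.548), the phase 4.57 hr and the amplitude 1.16. The next steadiest rows were *Eif5* (4.93%) and *Eif5a* (4.99%), described with their groups.

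Among the expressed rows, the helicase and cap-binding group held the widest range of levels as a ratio of the highest to the lowest mean. The helicase gene *Eif4a1* was the highest (chr11:69480438-69485925, minus strand). *Eif4a1* stood at 387, 302, 369, 357, 300.4 and 322 rpbp in series 1 and at 413, 336, 373, 391, 322 and 346 rpbp in series 2, from ZT2 to ZT22. In both series ZT2 was the highest time and ZT18 the lowest, and the 4 samples at ZT2 and ZT14 (357 to 413 rpbp) lay above the 4 at ZT6 and ZT18 (300.4 to 336 rpbp). For the 24 hr wave, F24 was 0.0749 (permutation p = 0.6947, adjusted p = 0.798), the phase 6.87 hr and the amplitude 1.37. The level itself is uncertain, since 64.2% of the pieces of *Eif4a1* transcripts as long as a sequenced read also occur elsewhere in the genome, and only uniquely mapped sequences were counted. Its exons also overlap those of 2 small nucleolar RNA genes over 3.32% and 3.30% of their bases.

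The second helicase gene, *Eif4a2* (202 ± 24.8 rpbp), was lower than *Eif4a1* in every sample, and *Eif4a3* (38.6 ± 6.23 rpbp), whose product acts mainly in the exon junction complex of spliced mRNA, was lower still. No piece of read length was shared between *Eif4a1* and *Eif4a2*. The scaffolds *Eif4g2* (232 ± 12.6 rpbp) and *Eif4g1* (229 ± 12.2 rpbp) had levels that did not differ beyond their spread, and both were far above *Eif4g3* (16.4 ± 1.59 rpbp). *Eif4g2* encodes DAP5, which lacks the site for eIF4E. Of the cap-binding proteins, *Eif4e* (52.6 ± 5.38 rpbp) was the highest and *Eif4e2* (22.3 ± 1.76 rpbp) the next.

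The lowest row of the group was *Eif4e3* (chr6:99207478-99616791, minus strand), a variant cap-binding protein. *Eif4e3* stood at 7.32, 4.16, 10.7, 8.76, 4.68 and 7.84 rpbp in series 1 and at 5.32, 7.04, 8.44, 6.48, 7.92 and 4 rpbp in series 2, from ZT2 to ZT22. Only 3 of the 12 values were above the minimum of 8 rpbp, and the 2 series were 2 rpbp or more apart at every time point, so the amplitude of 2.67 rests on low values. For *Eif4e3*, F24 was 0.270 (permutation p = 0.2442, adjusted p = 0.432), the phase 11.6 hr and the amplitude 2.67. *Eif4b* was the 1 row called among the 11 of the group (9.09%).

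**Figure D3:**
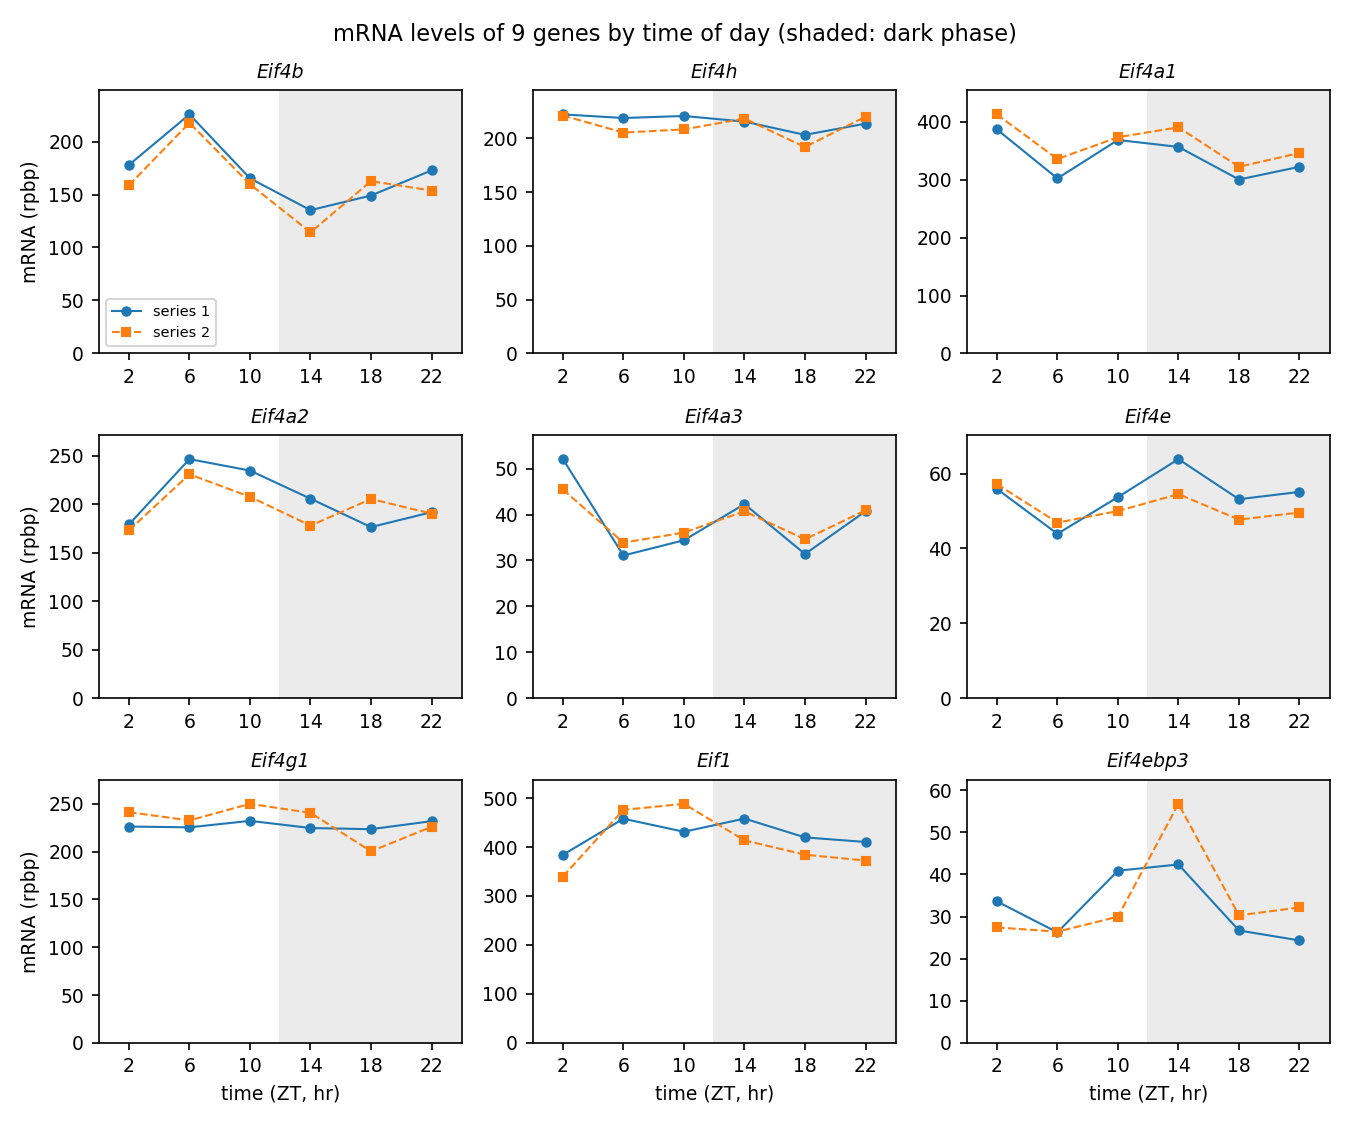
mRNA level in rpbp of 9 genes at the 6 time points, series 1 as circles with a full line and series 2 as squares with a broken line; the dark phase is shaded and each axis starts at 0. *Eif4b* goes from 222 rpbp at ZT6 to 125 rpbp at ZT14, the means of the 2 series, and *Eif4h* and *Eif4g1* stay nearly level.

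Scanning and start codon selection depend on eIF1, eIF1A and eIF5, and eIF5B joins the large ribosomal subunit at the end. *Eif1*, which keeps the scanning complex open until a start codon is found, had the highest mean of the 52 rows (chr11:100181199-100183410, plus strand). *Eif1* stood at 384, 458, 431, 458, 419.7 and 410.4 rpbp in series 1 and at 339.8, 476, 488, 414, 384 and 372 rpbp in series 2, from ZT2 to ZT22. ZT2 was the lowest time in both series, and the samples at ZT6 and ZT10 (431 to 488 rpbp) were above those at ZT2 and ZT22 (339.8 to 410.4 rpbp). For *Eif1*, F24 was 0.572 (permutation p = 0.0269, adjusted p = 0.140), the phase 10.2 hr and the amplitude 1.44, which is under the amplitude limit of 1.5, so the gene was not called. The wave fitted by limma had a log2 peak to trough difference of 0.32 ± 0.10, with an adjusted p of 0.141. Of the pieces of its transcripts, 30.03% occur elsewhere in the genome, so the level is uncertain, and none is shared with its paralog *Eif1b*.

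*Eif5b* was the lowest of the 6 rows of the group (chr1:38054855-38112424, plus strand), and *Eif5*, the activator of GTP hydrolysis by eIF2, was among the steadiest of all rows (chr12:112776312-112794270, plus strand). *Eif5b* stood at 29.2, 25.6, 24.8, 29.1, 25.4 and 26.7 rpbp in series 1 and at 28.4, 25.1, 26.5, 27, 23.9 and 23.6 rpbp in series 2, from ZT2 to ZT22. The 4 samples at ZT2 and ZT14 were the 4 highest of *Eif5b*. *Eif5* stood at 224, 224, 206, 224, 239.6 and 242 rpbp in series 1 and at 215, 228, 227, 209, 236 and 227 rpbp in series 2, from ZT2 to ZT22. The 12 values of *Eif5* span a ratio of 1.17. For the 24 hr wave of *Eif5b*, F24 was 0.0292 (permutation p = 0.8659, adjusted p = 0.914), the phase 5.34 hr and the amplitude 1.24. For that of *Eif5*, F24 was 0.339 (permutation p = 0.1573, adjusted p = 0.341), the phase 20.9 hr and the amplitude 1.17. Exons of *Eif5b* share 15.9% of their bases with those of *Rev1* on the other strand, and the signal was summed without regard to strand.

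The remaining scanning factors were *Eif1a* (79.8 ± 15.9 rpbp), *Eif1ay* (54.9 ± 6.38 rpbp) and *Eif1b* (45.3 ± 6.68 rpbp). The row named *Eif1ay* lies on the X chromosome in the annotation and is the gene now called *Eif1ax*. *Eif1a* was 1 of the 4 rows with a difference among the time points in limma (adjusted p = 0.0125), and its values are given here because that was seen. *Eif1a* stood at 93.9, 64.2, 65.1, 98.2, 65.3 and 87.3 rpbp in series 1 and at 83.7, 57.2, 67.7, 94.5, 76.3 and 105 rpbp in series 2, from ZT2 to ZT22. Both samples at ZT6 were the lowest, and the 6 samples at ZT2, ZT14 and ZT22 were above the 6 others. For *Eif1a*, F24 was 0.283 (permutation p = 0.2222, adjusted p = 0.411), the phase 20.2 hr and the amplitude 1.83.

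eIF2 has an α, a β and a γ subunit, from *Eif2s1*, *Eif2s2* and either *Eif2s3x* or *Eif2s3y*. The X-linked γ gene *Eif2s3x* was the highest (chrX:91434046-91458201, minus strand). *Eif2s3x* stood at 90, 88.6, 88.7, 87.1, 75.96 and 86.4 rpbp in series 1 and at 88.6, 90.2, 90.8, 82.3, 84.4 and 92.6 rpbp in series 2, from ZT2 to ZT22. All values of *Eif2s3x* were within 75.96 to 92.6 rpbp, and the highest and the lowest time differed between the series. For *Eif2s3x*, F24 was 0.444 (permutation p = 0.0504, adjusted p = 0.189), the phase 4.79 hr and the amplitude 1.22. Of the pieces of its transcripts, 88.4% occur elsewhere in the genome, the largest share of all rows, and none is shared with *Eif2s3y*, so the order of the 2 γ genes is uncertain.

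The Y-linked *Eif2s3y* was at 67.97 ± 5.96 rpbp. Its F24 was 0.560 with a permutation p of 0.0228 and an adjusted p of 0.128, and its amplitude of 1.36 was under the limit. The β subunit *Eif2s2* had the lowest mean of the 4 (chr2:154697146-154718671, minus strand). Its level of 30.8 ± 4.08 rpbp did not differ beyond the spread from that of *Eif2s1* (32.5 ± 4.84 rpbp). *Eif2s2* stood at 40.2, 31.5, 27.5, 32.9, 24.6 and 31.2 rpbp in series 1 and at 33.9, 29.2, 29.8, 28.8, 26.6 and 32.8 rpbp in series 2, from ZT2 to ZT22. ZT2 was the highest time and ZT18 the lowest in both series of *Eif2s2*. For *Eif2s2*, F24 was 0.391 (permutation p = 0.0925, adjusted p = 0.258), the phase 2.47 hr and the amplitude 1.64, and 20.01% of its pieces occur elsewhere in the genome.

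The α subunit, the protein that the kinases phosphorylate, comes from *Eif2s1* (chr12:79962806-79987997, plus strand), whose values are given because limma called it (adjusted p = 0.00849). *Eif2s1* stood at 37.6, 30.6, 34.3, 38.7, 25.9 and 29.6 rpbp in series 1 and at 38.9, 30.6, 35.2, 35.1, 25 and 28.1 rpbp in series 2, from ZT2 to ZT22. Both samples at ZT18 were the lowest, and the pairs of a time point lay close together, with an SD of at most 2.57 rpbp. The time-point means went from 38.2 ± 0.905 rpbp (SD, n = 2) at ZT2 to 25.5 ± 0.651 rpbp at ZT18. For the 24 hr wave of *Eif2s1*, F24 was 0.237 (permutation p = 0.2833, adjusted p = 0.469), the phase 7.62 hr and the amplitude 1.56. *Eif2a*, which encodes a separate protein that can deliver the initiator tRNA under stress and is no subunit of eIF2, was expressed at a low level (chr3:58329743-58361423, plus strand). *Eif2a* stood at 16.4, 14.3, 13.8, 10.9, 9.04 and 10.6 rpbp in series 1 and at 12.5, 13.6, 12.1, 12.1, 14.1 and 13 rpbp in series 2, from ZT2 to ZT22. Series 1 and series 2 had no common highest or lowest time. For *Eif2a*, F24 was 0.357 (permutation p = 0.1343, adjusted p = 0.315), the phase 4.69 hr and the amplitude 1.81.

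eIF2B recharges eIF2 with GTP and has 5 subunits. The catalytic ε subunit *Eif2b5* was the highest (chr16:20498890-20510028, plus strand). *Eif2b5* stood at 41.9, 35.8, 35.04, 40.8, 32.8 and 33 rpbp in series 1 and at 41.1, 34.9, 37.4, 36.04, 33.6 and 37.2 rpbp in series 2, from ZT2 to ZT22. In both series ZT2 was the highest time and ZT18 the lowest. For *Eif2b5*, F24 was 0.129 (permutation p = 0.5221, adjusted p = 0.673), the phase 4.57 hr and the amplitude 1.28. The γ subunit *Eif2b3* was the lowest (chr4:116692007-116759911, plus strand). *Eif2b3* stood at 7.12, 5.80, 8.44, 8.08, 6.64 and 7.76 rpbp in series 1 and at 7.64, 6.92, 9, 6.20, 5.48 and 7.04 rpbp in series 2, from ZT2 to ZT22. ZT10 was the highest time of *Eif2b3* in both series. For *Eif2b3*, F24 was 0.110 (permutation p = 0.5762, adjusted p = 0.715), the phase 8.73 hr and the amplitude 1.64.

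Between them lay *Eif2b4* (33.2 ± 3.84 rpbp), *Eif2b1* (27.3 ± 2.38 rpbp) and *Eif2b2* (22.2 ± 3.63 rpbp). *Eif2b3* was under *Eif2b2* in all 12 samples, although the subunits are present in equal numbers in the complex. Exons of *Eif2b4* share 7.86% of their bases with *Snx17* on the other strand. No row of eIF2 or eIF2B was called rhythmic.

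Of the 4 eIF2α kinases, *Eif2ak1* (HRI, the kinase that senses heme) had the highest mRNA level (chr5:144578657-144665125, plus strand). *Eif2ak1* stood at 34.9, 33.4, 28.6, 25.04, 31.4 and 32.3 rpbp in series 1 and at 32.96, 37.5, 35.2, 24.2, 35.2 and 23.8 rpbp in series 2, from ZT2 to ZT22. Both samples at ZT14, and series 2 at ZT22, were the lowest. For *Eif2ak1*, F24 was 0.271 (permutation p = 0.2377, adjusted p = 0.425), the phase 4.08 hr and the amplitude 1.57. *Eif2ak3* (PERK, the kinase of the endoplasmic reticulum) was the lowest of the expressed ones (chr6:70794509-70855239, plus strand). *Eif2ak3* stood at 10.7, 8.96, 7.64, 10.5, 7.96 and 8 rpbp in series 1 and at 10.3, 10.2, 8.56, 11.3, 8.52 and 14.1 rpbp in series 2, from ZT2 to ZT22. The highest value of *Eif2ak3* was that of ZT22 in series 2, where series 1 had 8 rpbp. For *Eif2ak3*, F24 was 0.0891 (permutation p = 0.6913, adjusted p = 0.796), the phase 23.5 hr and the amplitude 1.84.

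*Eif2ak2* (PKR, the kinase activated by double-stranded RNA) was at 18.3 ± 3.23 rpbp, between those 2 genes in every sample. *Eif2ak4* (GCN2, the kinase that senses uncharged tRNA) had its highest value at 5 rpbp, under the minimum of 8 rpbp. All 3 expressed kinase rows had amplitudes above 1.5, and none was called. Exons of *Eif2ak1* share 8.58% of their bases with *Aimp2* on the other strand.

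eIF3 is the largest initiation factor, and 15 rows stand for 13 of its subunits. Their mean levels had a median of 81.7 rpbp, and 14 of the 15 rows (93.3%) had more signal at ZT2 and ZT14 together than at ZT6 and ZT18 together, against 82.7% of the 52 initiation factor rows and 54.4% of all expressed genes. These times were chosen for comparison with the values known. *Eif3h* was the highest (chr15:51618104-51697027, minus strand). *Eif3h* stood at 152, 147, 164, 173, 148 and 147 rpbp in series 1 and at 149, 154, 153, 158, 162 and 157 rpbp in series 2, from ZT2 to ZT22. Both samples at ZT14 were above those at ZT2, ZT6 and ZT22, and they overlapped with those at ZT10 and ZT18. For *Eif3h*, F24 was 0.404 (permutation p = 0.0943, adjusted p = 0.260), the phase 13.7 hr and the amplitude 1.18, and 11.1% of its pieces occur elsewhere in the genome.

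The lowest row of eIF3 was *Eif3s2* (chr4:129269204-129277892, minus strand), an older symbol for the gene of *Eif3i*. *Eif3s2* stood at 10.5, 9.96, 12.2, 15.1, 11.5 and 9.92 rpbp in series 1 and at 12.4, 9.68, 13.1, 12.1, 13.4 and 11.7 rpbp in series 2, from ZT2 to ZT22. ZT6 was low in both series, with both values under 10 rpbp. For *Eif3s2*, F24 was 0.454 (permutation p = 0.0703, adjusted p = 0.224), the phase 14.6 hr and the amplitude 1.56. The row *Eif3i* was at 112 ± 7.39 rpbp, higher in all 12 samples, so the 2 rows with symbols of this gene give levels that differ more than most subunits differ from each other. Rows were matched to the annotation by symbol only, so the exons behind each row are not known here. Likewise *Eif3k* was at 27.1 ± 2.74 rpbp and *Eif3s12*, the same gene, at 67.9 ± 7.82 rpbp. With size factors by the median of ratios, *Eif3s2* was called rhythmic together with *Eif4b*, and *Eif3i* was not.

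The other rows of eIF3, apart from *Eif3k*, lay within a narrow range. From the highest down they were *Eif3f* (108 ± 8.12 rpbp), *Eif3s10* (107 ± 10.7 rpbp), which is now called *Eif3a*, *Eif3c* (103 ± 7.43 rpbp), *Eif3m* (93.1 ± 6.83 rpbp) and *Eif3j* (90.9 ± 9.09 rpbp). Below these lay *Eif3e* (81.7 ± 5.30 rpbp), *Eif3g* (77.8 ± 8.80 rpbp), *Eif3b* (76.4 ± 7.40 rpbp), *Eif3eip* (74.3 ± 5.24 rpbp), which is now called *Eif3l*, and *Eif3d* (71.03 ± 8.91 rpbp). Neighbours in this order differed by less than the larger of their SD over the 12 samples, except *Eif3c* from *Eif3m* and *Eif3j* from *Eif3e*. The levels of *Eif3j* and *Eif3d* are uncertain. Of the pieces of *Eif3j* transcripts, 73.4% occur elsewhere in the genome, and its exons share 19% of their bases with *Spg11* on the other strand, while those of *Eif3d* share 32.7% with a noncoding gene on the other strand. No row of eIF3 was called rhythmic.

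The repressors of eIF4E are the 4E-BP proteins, which mTOR switches off, and the transport protein 4E-T from *Eif4enif1*. *Eif4ebp2* had the highest level (chr10:60895245-60915417, minus strand). *Eif4ebp2* stood at 204, 197, 190.4, 181, 200.3 and 191 rpbp in series 1 and at 190.1, 216, 189, 209, 200.5 and 162 rpbp in series 2, from ZT2 to ZT22. Series 2 was lowest at ZT22 and series 1 at ZT14. For *Eif4ebp2*, F24 was 0.0876 (permutation p = 0.6916, adjusted p = 0.796), the phase 8.33 hr and the amplitude 1.33. *Eif4enif1* was the lowest (chr11:3102395-3144591, plus strand). *Eif4enif1* stood at 17.8, 12.3, 15.9, 20, 14.2 and 15.8 rpbp in series 1 and at 18.9, 16.4, 15.9, 15.5, 15.6 and 17.4 rpbp in series 2, from ZT2 to ZT22. At ZT14 series 1 had its highest value and series 2 its lowest. For *Eif4enif1*, F24 was 0.0250 (permutation p = 0.8928, adjusted p = 0.931), the phase 21.9 hr and the amplitude 1.63.

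*Eif4ebp1* (72.7 ± 13.3 rpbp) was lower than *Eif4ebp2* in all 12 samples, and *Eif4ebp3* (33.1 ± 9.38 rpbp) was lower than *Eif4ebp1*. Both varied more than most rows, with amplitudes of 2.07 and 2.33. The time-point means of *Eif4ebp3* were highest at ZT14, at 49.6 ± 10.2 rpbp (SD, n = 2). Its F24 of 0.401 (permutation p = 0.0796, adjusted p = 0.239) was under the limit, and it was called when ZT2 or ZT18 of series 1 or ZT10 of series 2 was left out, so that 2 rows were called each time. Of the exon bases of *Eif4ebp3*, 67.3% also belong to *Ankhd1* on the same strand, and the 2 genes cannot be told apart there.

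*Eif5a* encodes eIF5A, which helps the ribosome through stretches that are hard to translate, and had the second highest mean of all rows (chr11:69730216-69735460, minus strand). *Eif5a* stood at 372, 329, 373, 388, 357 and 373 rpbp in series 1 and at 346, 351, 381, 386, 348 and 356 rpbp in series 2, from ZT2 to ZT22. ZT14 was the highest time in both series. For *Eif5a*, F24 was 0.298 (permutation p = 0.2007, adjusted p = 0.389), the phase 13.98 hr and the amplitude 1.18. *Eif6*, which keeps the large ribosomal subunit free until it is needed, was lower (chr2:155645568-155652661, minus strand). *Eif6* stood at 62.5, 62.6, 61.1, 67.6, 59.8 and 62.8 rpbp in series 1 and at 63.3, 70.4, 71.2, 67.2, 60.7 and 73.1 rpbp in series 2, from ZT2 to ZT22. ZT18 was the lowest time of *Eif6* in both series. For *Eif6*, F24 was 0.0447 (permutation p = 0.8105, adjusted p = 0.878), the phase 8.48 hr and the amplitude 1.22. The paralog *Eif5a2* was at 0.433 ± 0.177 rpbp, and no piece of read length is shared between it and *Eif5a*.

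Of the Argonaute genes, *Eif2c1*, now called *Ago1*, was the only one expressed (chr4:126112256-126145878, minus strand). *Eif2c1* stood at 12.04, 14.1, 13.96, 10.4, 10.9 and 13.3 rpbp in series 1 and at 13.1, 12.8, 11.4, 10.3, 12.4 and 13.6 rpbp in series 2, from ZT2 to ZT22. Both samples at ZT14 were the lowest. For *Eif2c1*, F24 was 0.437 (permutation p = 0.0834, adjusted p = 0.244), the phase 2.94 hr and the amplitude 1.37. *Eif2c2*, *Eif2c3* and *Eif2c4* are now called *Ago2*, *Ago3* and *Ago4*. Without the expression minimum *Eif2c3* (F24 = 0.714, permutation p = 0.0097) and *Eif2c4* (F24 = 0.485, permutation p = 0.0379) would be called rhythmic, at values of at most 3.92 rpbp.

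The highest time-point means fell mostly at ZT2 and ZT14 and the lowest mostly at ZT18 and ZT6. Of the 52 rows, 22 (42.3%) had their highest time-point mean at ZT2 and 12 (23.1%) at ZT14, against 29.2% and 15.4% of all expressed genes. ZT2 is also the time at which the hepatocyte marker sum was lowest and the Kupffer cell marker sum highest, and their part in this was not tested. The lowest mean was at ZT18 in 21 rows (40.4%) and at ZT6 in 14 (26.9%), against 17.8% and 16.3% of all expressed genes. The sum of the 52 rows was lowest at ZT18 in both series, at 4494 rpbp in series 1 and 4619.8 rpbp in series 2, and the 10 other samples had 4732 to 5007 rpbp.

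A 12 hr component was looked for after these values were seen, by F12, the share of the variance in a 12 hr wave, so the test and the genes below were chosen with the values known. With samples every 4 hr, such a wave has the same value at ZT2 and ZT14, at ZT6 and ZT18 and at ZT10 and ZT22, so F12 compares the averages of these 3 pairs of times with one another. F12 was above F24 in 30 rows (57.7%), against 39.4% of all expressed genes. A 12 hr component (F12 above 0.45 and permutation p below 0.05) was called in 12 rows (23.1%), against 11.4% of all expressed genes. All 12 peaked between hours 11 and 2 of the 12 hr cycle, a span that was also chosen with the values known. Of all expressed genes, 5.61% were called with a peak in that span. None of the 12 passed the adjustment over the 10198 genes, and neither did any other gene. The 12 hr wave fitted by limma had an adjusted p below 0.05 in no row, against 0.0686% of all expressed genes, and an unadjusted p below 0.05 in 11 rows (21.2%), against 12.5% of all expressed genes.

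The 12 rows come from most groups. They are *Eif5b*, the eIF2 and eIF2B genes *Eif2s1*, *Eif2b3* and *Eif2b5*, the eIF3 genes *Eif3b*, *Eif3g* and *Eif3j*, the eIF4F genes *Eif4a1*, *Eif4a3*, *Eif4e* and *Eif4h*, and *Eif4enif1*. For *Eif4a3*, F12 was 0.724 (permutation p = 0.0012, adjusted p = 0.266), the largest of the 12. *Eif4a3* stood at 52.1, 31.1, 34.4, 42.3, 31.4 and 40.7 rpbp in series 1 and at 45.5, 33.9, 36.1, 40.7, 34.6 and 40.9 rpbp in series 2, from ZT2 to ZT22. The 2 samples at ZT2 were the highest, and the 4 at ZT2 and ZT14 (40.7 to 52.1 rpbp) lay above the 4 at ZT6 and ZT18 (31.1 to 34.6 rpbp). The log2 peak to trough difference of the 12 hr wave was 0.52 ± 0.11 (SE) for *Eif4a3*, with an adjusted p of 0.197 in limma, and the test for any difference among the time points had an adjusted p of 0.0153. The last call was lost without ZT2 of series 1, which left 3 rows called.

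For *Eif2s1*, F12 was 0.721 (permutation p = 0.005, adjusted p = 0.329), for *Eif4a1*, F12 was 0.714 (permutation p = 0.0041, adjusted p = 0.299), and for *Eif5b*, F12 was 0.711 (permutation p = 0.0071, adjusted p = 0.329). *Eif4e* stood at 55.9, 43.9, 53.7, 63.9, 53.2 and 55.1 rpbp in series 1 and at 57.2, 46.9, 50, 54.5, 47.7 and 49.6 rpbp in series 2, from ZT2 to ZT22. The 2 samples of *Eif4e* at ZT6 were the lowest of their series. For *Eif4e*, F12 was 0.628 (permutation p = 0.0066, adjusted p = 0.329). The F12 of the 7 others lay between 0.477 (*Eif4h*) and 0.642 (*Eif2b5*).

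The 12 rows were chosen on both series together, so their values in each series are a description and no separate support. In series 1 the ratio of the mean at ZT2 and ZT14 to the mean at ZT6 and ZT18 was between 1.04 and 1.51 for the 12 rows, and in series 2 it was between 1.07 and 1.33. The 12 hr peaks fell between hours 11.5 and 2.06 in series 1 and between hours 10.8 and 1.68 in series 2. F12 had a median of 0.776 in series 1 and 0.655 in series 2, and the lowest values were 0.286 for *Eif4h* in series 1 and 0.163 for *Eif4enif1* in series 2. Over all 52 rows the ratio had a median of 1.12 and was above 1 in 43 (82.7%), against a median of 1.02 and 54.4% in all expressed genes.

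All 4 values at ZT2 and ZT14 lay above all 4 at ZT6 and ZT18 in 11 rows (21.2%), against 6.61% of all expressed genes. These times and their order were chosen with the values known, so the count is no separate support. The 11 rows are *Eif1a*, *Eif2ak3*, *Eif2b5*, *Eif2s1*, *Eif3b*, *Eif3g*, *Eif3j*, *Eif4a1*, *Eif4a3*, *Eif4e* and *Eif5b*. The reverse order was found in 0 rows, against 4.19% of all expressed genes. With size factors by the median of ratios, 9 rows were called at 12 hr (17.3%, against 11.5% of all expressed genes), and *Eif3g*, *Eif3j* and *Eif4h* were the 3 that dropped out. Without both ZT2 samples 8 rows were called (15.4%, against 9.87%), of which 5 were among the 12, namely *Eif2s1*, *Eif4a1*, *Eif4a3*, *Eif4e* and *Eif5b*. The limma test for any difference then called 3 rows (5.77%, against 6.16%), *Eif1a*, *Eif2s1* and *Eif4b*.

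**Figure D4:**
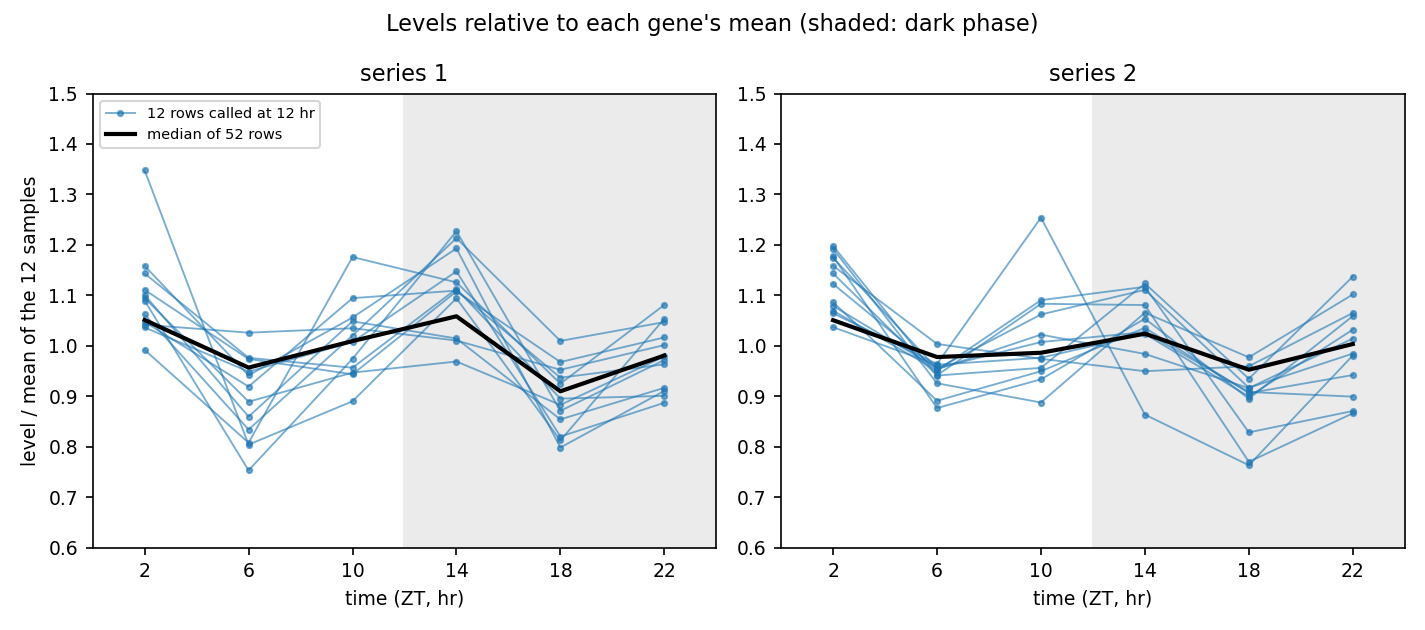
Level of each of the 12 rows called at 12 hr (blue) divided by the mean of its 12 samples, at the 6 time points of series 1 (left) and series 2 (right), with the median of all 52 expressed Eif rows in black; the dark phase is shaded and the axis starts at 0.6. The black line is higher at ZT2 and ZT14 than at ZT6 and ZT18 in both series.

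Among the cell type marker sums, only that of the bile duct had a 12 hr permutation p below 0.05. The mean sums at ZT2 and ZT14 and at ZT6 and ZT18 were 200.6 and 199.9 rpbp for endothelial markers (permutation p = 0.278). They were 519.5 and 518.4 rpbp for red blood cell markers (0.8561) and 214.7 and 202.7 rpbp for stellate cell markers (0.4578). The p was 0.6267 for lymphocyte, 0.3623 for hepatocyte, 0.3769 for Kupffer cell and 0.3273 for neutrophil markers. The bile duct markers (4 of 5 in the table, 2 expressed, none at 0 in all samples) summed to 71.5 to 229 rpbp at ZT2 and ZT14 and to 63.7 to 74.9 rpbp at ZT6 and ZT18, and the sum had an F12 of 0.437 with a permutation p of 0.0342. The neutrophil markers (3 of 3 in the table, 2 expressed) summed to 2.52 to 21.4 rpbp at ZT2 and ZT14 and to 4.48 to 8.84 rpbp at ZT6 and ZT18. The Kupffer cell markers (6 of 6 in the table, 5 expressed) summed to 264 to 554 rpbp and to 294 to 441 rpbp at these times. The hepatocyte markers had 92188 and 95044 rpbp at ZT2, 151683 and 174509 rpbp at ZT14 and 149527 to 159859 rpbp at ZT6 and ZT18. The high Kupffer cell sums were those of ZT2 (552 and 554 rpbp), and ZT14 had 397 and 264 rpbp. The part of these in the 12 hr values of the initiation factors was not tested.

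Promoter sequences were read from RefSeq (GRCm38.p6, from 250 bases before to 50 bases after a start site) for 44 of the 55 genes, in 58 windows. The table did not match *Eif1a*, *Eif2b3*, *Eif2c2*, *Eif3e*, *Eif3h*, *Eif3i*, *Eif4e3*, *Eif4ebp1*, *Eif4ebp3*, *Eif4g2* and *Eif6*. Searched on both strands were the E-box CACGTG, which CLK:BMAL1 and also MYC bind, the D-box TTATGNAA, the cyclic AMP element TGACGTCA and the amino acid response element TGATGNAA. No one of these can match at the same bases as another. The E-box occurred in 12 of the 58 windows (20.7%), against 7.15% of all 32851 windows. By gene it was 10 of 44 (22.7%), against 8.09% of 27025 genes, and the 10 were *Eif1b*, *Eif3f*, *Eif3a*, *Eif3k*, *Eif4a1*, *Eif4e*, *Eif4g1*, *Eif4h*, *Eif5a* and *Eif5a2*. The D-box and the cyclic AMP element occurred in no window of these genes, against 3.38% and 1.79% of all windows, and the amino acid response element occurred in 1 (*Eif2s3x*), against 3.97%.

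Of the 12 rows called at 12 hr, 11 had a window and 3 of these had an E-box, *Eif4a1*, *Eif4e* and *Eif4h*. This stands beside 10 of all 44 initiation factor genes with a window (22.7%) and 8.09% of 27025 genes. Their promoters are shown because the products of these genes act together at the cap and the windows share the motif, from 250 bases before to 20 bases after the start site, 5′ to 3′, with the E-box in capitals. They lie at chr11:69672404-69672673, minus strand, at chr3:138527018-138527287, plus strand, the second of 2 start sites of *Eif4e*, and at chr5:134639390-134639659, minus strand (GRCm38.p6). A match is a description of the letters and not a site of binding, and a link of the motif to the 12 hr values was not tested.

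Eif4a1: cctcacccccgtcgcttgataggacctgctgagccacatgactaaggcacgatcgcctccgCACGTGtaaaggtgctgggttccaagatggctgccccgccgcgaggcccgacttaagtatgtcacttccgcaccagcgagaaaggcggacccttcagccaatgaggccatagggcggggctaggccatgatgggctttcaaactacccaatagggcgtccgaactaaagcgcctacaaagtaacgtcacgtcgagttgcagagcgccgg

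Eif4e: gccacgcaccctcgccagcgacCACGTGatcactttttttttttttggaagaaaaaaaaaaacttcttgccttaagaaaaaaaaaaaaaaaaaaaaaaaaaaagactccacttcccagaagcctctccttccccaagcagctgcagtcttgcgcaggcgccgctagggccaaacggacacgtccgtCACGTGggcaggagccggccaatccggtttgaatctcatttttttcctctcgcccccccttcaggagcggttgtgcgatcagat

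Eif4h: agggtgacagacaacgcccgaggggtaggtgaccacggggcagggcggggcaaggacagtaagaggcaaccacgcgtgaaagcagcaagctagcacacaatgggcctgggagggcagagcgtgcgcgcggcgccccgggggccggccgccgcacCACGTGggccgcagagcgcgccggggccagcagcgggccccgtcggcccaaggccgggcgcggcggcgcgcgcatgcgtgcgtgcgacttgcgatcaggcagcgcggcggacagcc

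The E-box lies 189 bases before the start site of *Eif4a1*, 228 and 64 bases before that of *Eif4e* and 96 bases before that of *Eif4h*. *Eif4g1*, which encodes the scaffold of the same complex and had an amplitude of 1.25, had an E-box 54 bases before and another 16 bases after a start site, and *Eif4b* had none.

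Many mRNAs of the translation machinery begin with a C and a run of pyrimidines, through which mTOR and LARP1 control their use. A C at the start site followed by at least 4 pyrimidines was found in 2 of the 58 windows (3.45%), those of *Eif3f* and *Eif2s3x*, against 2.51% of all windows. The 40 bases around these start sites are shown with the run, 11 bases in both, in capitals (chr7:108934395-108934434, plus strand and chrX:94212632-94212671, minus strand, GRCm38.p6).

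Eif3f: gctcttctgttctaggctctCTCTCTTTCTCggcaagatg

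Eif2s3x: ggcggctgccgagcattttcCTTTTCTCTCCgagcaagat

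The 24 hr values of these 2 genes were not called, with an F24 of 0.143 for *Eif3f* and of 0.444 for *Eif2s3x*. RefSeq start sites are annotated and were not measured here, and a shift of a single base changes whether a run begins at the start.

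The genes that act on the initiation factors or beside them were taken from a list of elongation and termination factors, poly(A)-binding proteins, mTOR pathway members and stress response genes. Of its genes, 48 were in the table and 45 were expressed. The genes *Mtor*, *Rptor*, *Rictor*, *Mlst8*, *Ppp1r15a*, *Dnajc3*, *Ncbp1* and *Gigyf2* were not analysed here. Rhythmic by the rule above were 6 of 45 (13.3%), against 19.1% of all expressed genes, and 3 of 45 were strong (6.67%), against 7.89%. After adjustment 2 were left (4.44%), *Mknk2* and *Larp1*, against 5.62% of all expressed genes. With single samples left out, 5 to 8 genes of the list were called, against 15.7% to 19.7% of all expressed genes.

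*Mknk2* encodes MNK2, the kinase that phosphorylates eIF4E on the scaffold eIF4G. *Mknk2* stood at 26.4, 111, 116, 78.8, 69.5 and 41.1 rpbp in series 1 and at 29.6, 95.9, 159.5, 99.2, 51.7 and 33.8 rpbp in series 2, from ZT2 to ZT22. The 6 samples at ZT6, ZT10 and ZT14 were above the 6 others. For *Mknk2*, F24 was 0.822 (permutation p = 0.0008, adjusted p = 0.0280), the phase 10.4 hr and the amplitude 6.05, and the log2 peak to trough difference was 2.09 ± 0.28 (SE) with an adjusted p of 0.00282 in limma. *Larp1* encodes the protein that binds the mRNAs with a pyrimidine start. *Larp1* stood at 98.1, 69.3, 64.2, 72.3, 82.8 and 96.9 rpbp in series 1 and at 97.6, 65.8, 69.6, 75.2, 96.2 and 104 rpbp in series 2, from ZT2 to ZT22. The 6 samples at ZT18, ZT22 and ZT2 were above the 6 others. For *Larp1*, F24 was 0.875 (permutation p = 0.0007, adjusted p = 0.0269), the phase 22.1 hr and the amplitude 1.62, with a log2 difference of 0.65 ± 0.09 and an adjusted p of 0.00383 in limma.

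*Atf4*, the transcription factor whose mRNA is translated when eIF2α is phosphorylated, was also called. *Atf4* stood at 217, 127, 110.3, 143, 148 and 161 rpbp in series 1 and at 196, 134, 117, 148, 139 and 208 rpbp in series 2, from ZT2 to ZT22. The samples at ZT2 and ZT22 were the 4 highest. For *Atf4*, F24 was 0.660 (permutation p = 0.0073, adjusted p = 0.0753), the phase 23.4 hr and the amplitude 1.96. *Trib3*, a target of ATF4, was above 8 rpbp only at ZT6. *Trib3* stood at 3.32, 12.2, 3.16, 0.800, 1.76 and 2.16 rpbp in series 1 and at 3, 10.8, 5.04, 3.12, 4.52 and 2 rpbp in series 2, from ZT2 to ZT22. For *Trib3*, F24 was 0.479 (permutation p = 0.0266, adjusted p = 0.139), the phase 6.27 hr and the amplitude 15.2, and its call was lost with 7 of the 12 single samples left out and with either series alone. Over the 12 samples left out in turn F24 was between 0.365 and 0.597. The amplitude rests on the 0.800 rpbp at ZT14 of series 1, far under the expression minimum, and was 6.93 without that sample.

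*Ppp1r15b* encodes the constant regulatory subunit of the phosphatase that restores eIF2α. *Ppp1r15b* stood at 62.9, 85.6, 88.8, 95.2, 90.96 and 68.9 rpbp in series 1 and at 75.2, 99.5, 90.2, 95.6, 80.7 and 74.8 rpbp in series 2, from ZT2 to ZT22. ZT2 and ZT22 were the lowest times in both series. For *Ppp1r15b*, F24 was 0.667 (permutation p = 0.0112, adjusted p = 0.0904), the phase 11.8 hr and the amplitude 1.58, and the call was lost without ZT2 of series 1 (F24 = 0.651) and without both ZT2 samples (F24 = 0.604), since the amplitude fell under 1.5. *Ncbp2* encodes the small subunit of the nuclear cap-binding complex. *Ncbp2* stood at 34.1, 21.1, 30.1, 45.5, 39.7 and 36.96 rpbp in series 1 and at 27.6, 30.4, 27.6, 37.04, 37.4 and 31.5 rpbp in series 2, from ZT2 to ZT22. The samples at ZT14 and ZT18 were above all the others, the nearest of which was ZT22 of series 1. For *Ncbp2*, F24 was 0.634 (permutation p = 0.0086, adjusted p = 0.0806), the phase 17.2 hr and the amplitude 2.16.

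**Figure D5:**
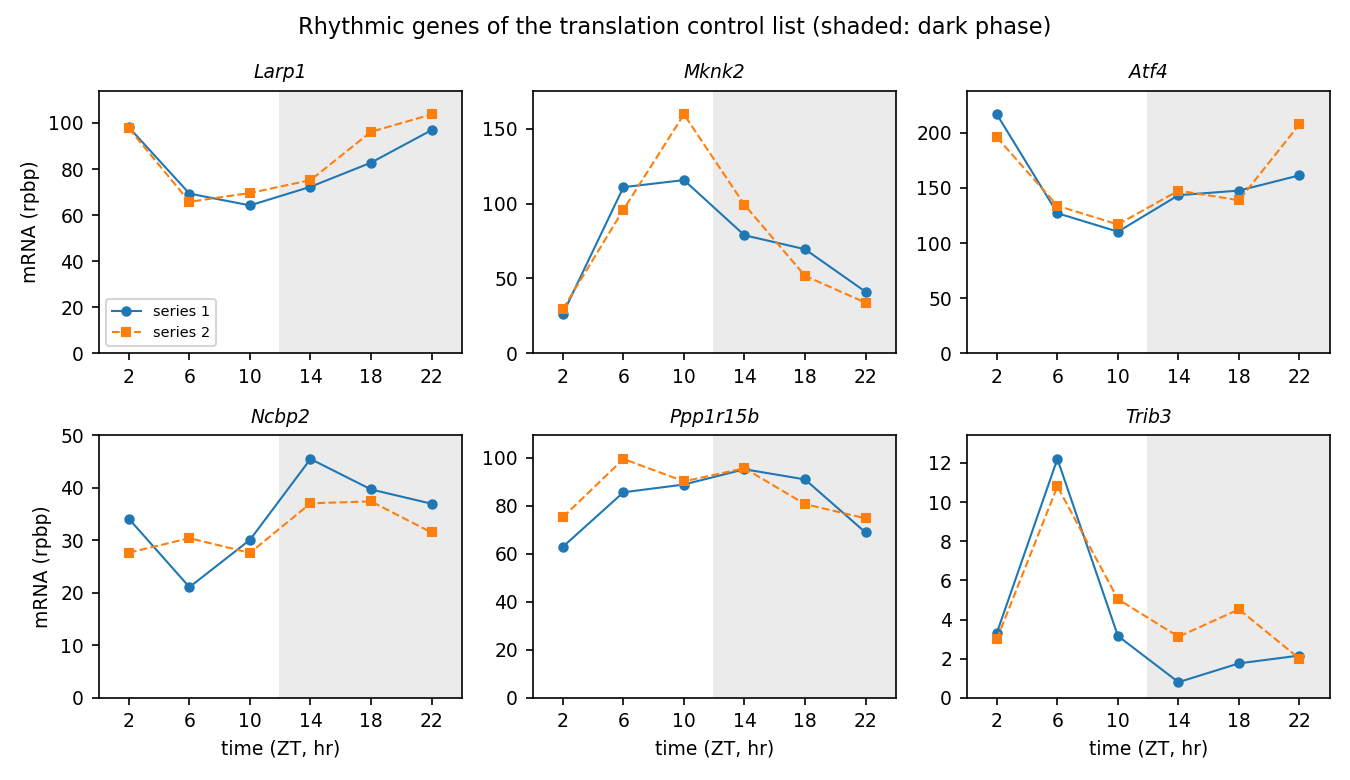
mRNA level in rpbp of the 6 rhythmic genes of the translation control list at the 6 time points, series 1 as circles with a full line and series 2 as squares with a broken line; the dark phase is shaded and each axis starts at 0. *Mknk2* peaks at ZT10, *Trib3* at ZT6 and *Larp1* and *Atf4* near the end of the dark phase or at ZT2.

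At 12 hr, 6 of the 45 genes of the list were called (13.3%, against 11.4% of all expressed genes), 4 of them with a peak between hours 11 and 2 (8.89%, against 5.61%). *Abce1* and *Gspt1* are named here because their F12 was high, at 0.911 and 0.818. They encode the factor that recycles ribosomes and the release factor eRF3a. *Abce1* stood at 69.7, 49.6, 58.4, 64.8, 52.6 and 59.5 rpbp in series 1 and at 68.5, 48.1, 55.2, 63.7, 52.04 and 59.6 rpbp in series 2, from ZT2 to ZT22. The 4 samples of *Abce1* at ZT2 and ZT14 (63.7 to 69.7 rpbp) were above the 8 others (48.1 to 59.6 rpbp). For *Abce1* the permutation p of the 12 hr wave was 0.0002 (adjusted p = 0.204), and for *Gspt1* it was 0.0005 (adjusted p = 0.232).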

How the data were processed

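Poly(A) RNA from the livers of C57BL/6 mice was sequenced in 12 samples, from TruSeq libraries made with 4 μg of total RNA. Per the labels, the submitters' processing notes name CASAVA 1.8, TopHat and the mm9 build. From the uniquely mapped sequences the authors added up the coverage of both strands at each base of a gene's flattened exons and deposited the signal per exonic base (reads per base pair, rpbp), at 10000000 mapped sequences per sample. Whole reads cannot be read from this signal, which is why count tests and counting intervals are left out. Columns named ZT20 were read as the ZT22 of the labels. The deposited table also holds the authors' own F24 score, phase and p-value for each gene, which were not used.

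The signal was multiplied by 4. F24, F12 and the phases were computed by Fourier analysis of the 12 concatenated values, with a one-sided permutation p (10000 random orders, seed 1). Benjamini-Hochberg adjustment ran over 10198 expressed genes. limma 3.58.1 in R 4.3.3 was fitted to log2(rpbp + 1) over the same genes, with a cosine and a sine or with the 6 time points. Python 3.11.15, numpy 2.4.6, pandas 2.3.3 and matplotlib 3.10.9 were used, and the tests were tested on simulated data. Gene coordinates, exon overlaps and the search for transcript pieces of read length that occur more than once used the NCBIM37 (mm9) genome and annotation. Promoters were RefSeq windows of GRCm38.p6, matched by symbol, and the builds were not mixed.

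The members and lists were chosen with earlier results of these data known. Full values and statistics are given for the rhythmic row, the rows with the highest and the lowest mean level of each group and the 3 rows with the smallest SD over mean. For the translation control list they are given for the rhythmic genes only. *Eif1a*, *Eif2s1*, *Eif4a3*, *Eif4e*, *Eif4ebp3*, *Abce1* and *Gspt1* were added after their values were seen. Alignments of the proteins of paralogs were planned and not made, and shared pieces of their transcripts were counted instead. Alternatives were other expression minimums, size factors, log scales, limma, the adjusted p, an amplitude taken over the means of time points, a replicate block and samples or series left out. The checks of the 12 hr component and those without both ZT2 samples were added after the data were seen.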

Additional observations from a re-analysis of the deposited data

How the results depend on the processing

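Instead of 1 rhythmic row (*Eif4b*), there were 3 without an expression minimum (*Eif2c3*, *Eif2c4* and *Eif4b*), 2 with size factors by the median of ratios and 2 without both ZT2 samples (*Eif3s2* and *Eif4b* each time), 0 with the adjusted permutation p, 0 with the 24 hr cosine of limma and its adjusted p and 4 with the limma test for any difference (*Eif1a*, *Eif2s1*, *Eif4a3* and *Eif4b*). It was 1 with the 5 other settings. With a sample or series left out it ranged from 0 to 3. With a minimum of 16 rpbp, 2.13% of the rows were called, against 19.9% of all genes above that minimum. No share of all genes is set beside the counts without an expression minimum or with size factors, which show only how the calls changed. The F24 of *Eif4b* ranged from 0.461 to 0.743 with a sample or series left out. It stayed at 0.573 with the adjusted permutation p (0.0992), the limma cosine (adjusted p = 0.0799) and the limma cosine with a replicate block (adjusted p = 0.0982), none of which called it. In the 9 other settings F24 was between 0.518 and 0.792 (without both ZT2 samples) and *Eif4b* was called. Of the translation control list, 2 genes were called with the adjusted permutation p, 3 with the limma cosine, 4 to 7 in the 9 other settings and 0 to 8 with a sample or series left out. A single series of 6 values has too few orders for a 12 hr wave to pass the threshold, so the 12 hr component was not run there.

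The 12 rows with a 12 hr component became 0 with the limma cosine, 8 to 13 in the 6 other settings (15.4% to 25.0%, against 9.85% to 12.1% of all expressed genes) and 8 to 14 with a sample left out (15.4% to 26.9%, against 8.06% to 13.6%). Of the F12 values of these rows, 111 of 144 kept their call with a sample left out. The rows whose ZT2 and ZT14 values lay above those at ZT6 and ZT18 numbered 11, 9 with size factors, 14 without both ZT2 samples (14.5% of all expressed genes), and 19 to 28 with a single series, where fewer values have to be ordered (15.5% and 26.8% of all expressed genes). The limma test for any difference called 3 to 5 rows with a sample left out and 3 without both ZT2 samples. The share of all expressed genes is given above for the latter only, so the former counts show only how the calls changed. The median level was between 66.4 and 69.5 rpbp with a single series. No result reversed. Depth cannot be read from coverage, and rows near 8 rpbp such as *Eif4e3* and *Eif2b3* had few reads per base behind them.

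The replicate numbers do not pair the samples. Deviations from the time-point means correlated between samples of the same number with r of −0.153 to 0.206 (median −0.0258, 15 pairs, across genes), above 0.1 in 2 pairs. With a replicate block the permutation test still called 1 row, the limma cosine 0 and the limma test for any difference 4, the list gave 7 genes (3 with the limma cosine), and 11 rows had a 12 hr component, 10 of them among the 12. The share of all expressed genes called with the block is not set beside these counts, so they show only how the calls changed.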
